A study of Mus musculus with 39 samples.

Results

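The 9 genes described here encode the proteases of the first complement component (C1ra and C1s1), their inhibitor (Serping1), the components C2, C3 and C4b, factor B (Cfb), the terminal component C7 and the membrane regulator Cd55. They were taken by gene symbol from a table of 30012 gene names, and all 9 were among the 14419 genes with enough counts to be tested. The cells were lung fibroblasts of wild-type C57BL/6 mice, freed of cells bearing CD45, CD31, EpCAM, CD146 or Ter119 by magnetic depletion, grown in culture and then kept without serum for 24 h. C1q, the recognition protein of the classical pathway, was added at 1, 10 or 100 µg/ml, and RNA was sequenced from transcript 5′ ends after 2, 24, 48 or 72 h. Each of these 12 groups, and 1 group of untreated cells at 0 h, held 3 libraries, 39 in all. No untreated group of a later time was analysed here, so C1q and time in culture cannot be told apart in any comparison with untreated cells. The doses are compared with each other at the same time. The sources used here do not give the age or number of the mice, nor the origin of the 3 libraries of a group.

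Complement is a cascade of plasma proteins that marks microbes and damaged cells for removal. In the classical pathway, C1q binds a target and carries a tetramer of the serine proteases C1r and C1s; C1r activates C1s, which cleaves C4 and C2. The fragments form an enzyme that cleaves C3, the component on which all complement pathways meet. Factor B joins a C3 fragment to form the C3-cleaving enzyme of the alternative pathway, C7 belongs to the membrane attack complex, Serping1 blocks C1r and C1s, and Cd55 speeds the decay of the C3-cleaving enzymes on the cell surface. Liver is the main source of the plasma proteins, and fibroblasts are among the other cells known to make several of them.

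The tested genes held 99.4% of all counts, and library totals ran from 1806106 to 3012518. Counts of a member in a single library ran from 5 for C7 to 7362 for Serping1, so counting error is widest for C7 in the libraries where it was low. All 7 fibroblast markers were detected in every group, and their summed level was 5307 to 6030.5 counts-per-million (CPM) in untreated cells. The 6 lymphocyte markers summed to at most 2.04 CPM in a library. Markers of cells that the depletion targets were present: untreated libraries held 43.4 to 59.3 CPM of Epcam, and their 15 myeloid markers summed to 275 to 304 CPM. Of these myeloid markers, Ptprc, which encodes CD45, was low in the same libraries, at 2.63 to 4.01 CPM. Adgre1 and Mrc1 were also low, at 2 to 3.68 and 0.80 to 1.05 CPM, so the sum came mainly from other markers of the list. Ptprc, Adgre1 and Mrc1 all had higher means at 72 h. With 1, 10 and 100 µg/ml these were 14, 13.7 and 8.61 CPM for Ptprc and 15.4, 18.2 and 17.3 for Adgre1. For Mrc1 they were 44.3, 48.9 and 18.3 CPM. With 1 µg/ml at 24 h, the third library was far above its fellows in C3 and also highest in C1ra and C4b, as given below.

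In the RefSeq annotation of GRCm38.p6, 3 of the members lie close together on chromosome 17, in the class III region of the major histocompatibility complex. C2 (chromosome 17, 34862602 to 34882100) and Cfb (34856374 to 34862514) are parted by 87 bases, and C4b (34728139 to 34743902) lies 112471 bases from Cfb. All 3 are on the minus strand, as is C3 on the same chromosome (57203967 to 57228136), 22.46 Mb from C4b. C1ra (chromosome 6, 124512621 to 124523440, plus strand) and C1s1 (124530344 to 124542392, minus strand) are parted by 6903 bases. Serping1 lies on chromosome 2 (84765360 to 84775444), C7 on chromosome 15 (4987750 to 5063773) and Cd55 on chromosome 1 (130429798 to 130465009), each on the minus strand.

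The stretches just before the starts of C3 and C7 are shown because these 2 genes had the largest differences from untreated cells. They are RefSeq promoters of GRCm38.p6, minus strand, written 5′ to 3′ and ending at the base before the annotated start; the C3 stretch is chr17:57228137-57228286 and the C7 stretch chr15:5063774-5063923.
C3: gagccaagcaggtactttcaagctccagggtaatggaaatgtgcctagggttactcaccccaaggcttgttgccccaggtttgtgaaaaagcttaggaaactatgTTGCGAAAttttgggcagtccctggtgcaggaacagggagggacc
C7: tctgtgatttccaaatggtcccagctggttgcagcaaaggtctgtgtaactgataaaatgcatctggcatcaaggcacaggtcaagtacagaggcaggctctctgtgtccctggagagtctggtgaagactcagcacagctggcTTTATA
Capitals mark a match to the C/EBP letters TTGCNNAA in C3, 45 to 38 bases before the start, and to the TATA box letters TATAAA, read on the other strand, in C7, 6 to 1 bases before it. Promoter sequences were found for 5 of the 9 members (C1ra, C1s1, C3, C7 and Cd55), and 5 motifs were searched on both strands of the 250 bases before each start. Of 32851 promoters of that length, 9.56% held the C/EBP letters, 12.4% the TATA box letters, 4.98% the NF-kB letters GGGNNTTCC, 7.02% the GAS letters TTCNNNGAA and 2.98% the IRF letters, which are GAAA, any 2 bases and GAAA again. Other matches were a C/EBP match in C1s1, a GAS match in C7 and an NF-kB match in Cd55. No promoter of these 5 genes held the IRF letters, and no motif was found in more than 2 of them. The GAS letters read the same on both strands, and no match overlapped another. A match describes the letters only.

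Compared with untreated cells, no member was called at 2 h, and nearly all were higher at 24 h and later. A gene was called where its Benjamini-Hochberg adjusted p, from a quasi-likelihood test in edgeR over all tested genes, was under 0.05. By this rule 0 of the 9 were called at 2 h at any dose, where 6.15%, 12.7% and 5.16% of all tested genes were called at 1, 10 and 100 µg/ml. The count at an unadjusted p under 0.05 was also 0 of 9 at each dose, and DESeq2 called 0. The share of all tested genes at that unadjusted threshold was not counted. Log2 differences at 2 h lay between -0.58 and 0.33. Their 95% intervals reached from -1.36 to 0.89, both ends being of C7, so the members are not shown to be unchanged at 2 h. At 24 h, 9, 9 and 7 of the 9 were called higher at 1, 10 and 100 µg/ml, against 10.9%, 12.5% and 16.8% of all tested genes. At 48 h all 9 were higher at each dose (background 16%, 17% and 19.1%), and at 72 h again all 9 at each dose (background 18.1%, 19.3% and 22.5%). None was called lower at any dose or time. The members were chosen with earlier results of these data known, so these counts describe them and are no test of the group.

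The median log2 difference of the members at 1, 10 and 100 µg/ml was 1.22, 1.19 and 0.63 at 24 h, 1.64, 1.69 and 1.21 at 48 h, and 1.78, 2.03 and 1.83 at 72 h. The median over all tested genes in these 9 comparisons was between 0.01 and 0.05. Myeloid markers were also higher at the later times, with sums of 1074 to 1195, 1257 to 1439 and 884 to 1075 CPM at 72 h, and 12 of the 13 tested were called higher at each dose. At 24 h their sums were 381 to 399, 309 to 362 and 396 to 413 CPM, and 2, 2 and 5 of the 13 were called higher. Mean sums of other marker lists also differed from untreated cells at 72 h. With 1, 10 and 100 µg/ml, epithelial markers were at 120, 111 and 115 CPM, beside 583 in untreated cells. Mesothelial markers were at 675, 580 and 436 CPM beside 305, and fibroblast markers at 7655, 7637 and 8694 CPM beside 5599. Endothelial markers were at 81.8, 77.5 and 52.8 CPM beside 64.9, and mural markers at 236, 231 and 227 CPM beside 211. The part of any of these cell types in the members' differences was not tested. In such bulk samples, a larger share of cells of a type and more RNA per cell cannot be told apart.

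**Figure D1:**
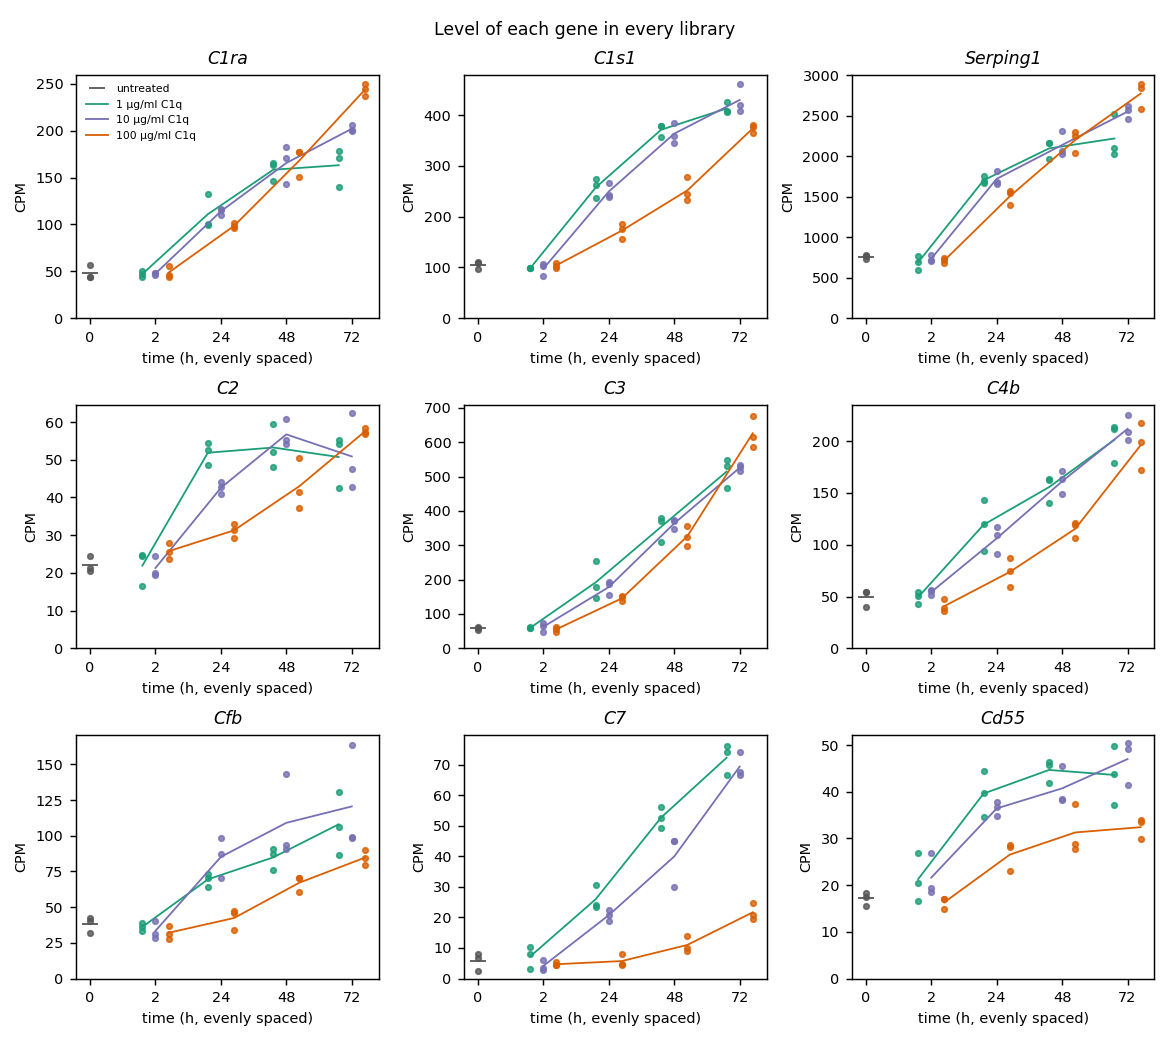
Level of each of the 9 genes in every library, in CPM on a linear axis from 0, against time in culture with C1q (time points evenly spaced); points are libraries, coloured by dose, lines join group means and the bar at 0 h is the mean of untreated cells. At 2 h the libraries lie near the untreated ones. From 24 h the means of 100 µg/ml lie below those of the other doses for C7, Cfb, Cd55, C1s1 and C4b. They lie above them from 48 h for C1ra and Serping1, and at 72 h for C3 and C2.

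C1ra, which encodes the protease that starts the classical cascade, stood at 43.7, 56.3 and 43.4 CPM in the 3 untreated libraries and at 43.5 to 55.3 CPM over the 9 libraries of 2 h. At 24 h it was at 99.2, 101 and 133 CPM with 1 µg/ml, 117, 110.2 and 115 with 10 µg/ml and 96.2, 98 and 101 with 100 µg/ml. The third library with 1 µg/ml was the highest of the 9, and the libraries of 100 µg/ml overlapped those of 1 µg/ml. At 48 h the doses overlapped, at 143 to 183 CPM with the lower doses and 150.3 to 178 CPM with 100 µg/ml. At 72 h the values were 170.5, 140.5 and 179 CPM with 1 µg/ml, 199, 206 and 201 with 10 µg/ml and 237, 249.7 and 245 with 100 µg/ml. At that time the 3 doses did not overlap, and the highest dose held the highest values. The log2 differences from untreated cells at 72 h were 1.78 ± 0.12, 2.09 ± 0.12 and 2.36 ± 0.12 (SE, 3 libraries a group), with adjusted p of 3.59e-17, 7.23e-20 and 1.08e-21 by edgeR.

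C1s1, which encodes the protease that cleaves C4 and C2, held 108, 111 and 96.6 CPM in untreated cells and 83.4 to 109.6 CPM at 2 h. Levels at 24 h were 236, 274 and 262 CPM with 1 µg/ml, 243, 239 and 266 with 10 µg/ml and 156, 185 and 176 with 100 µg/ml. At 48 h it was at 378, 356 and 379 CPM with 1 µg/ml, 359.5, 385 and 346 with 10 µg/ml and 233, 244 and 277 with 100 µg/ml. At both times the libraries of 100 µg/ml lay below all libraries of the lower doses and above all untreated ones. At 72 h they were at 377, 380.2 and 364 CPM, below but nearer to the 406 to 461 CPM of the lower doses. The log2 difference of 100 µg/ml from untreated cells was 0.72 ± 0.09 at 24 h, 1.26 ± 0.09 at 48 h and 1.83 ± 0.09 at 72 h, all called.

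Serping1, which encodes the inhibitor of both proteases, held 775, 729 and 764 CPM in untreated cells and 597 to 782 CPM at 2 h. The 24 h libraries held 1687, 1754 and 1663 CPM with 1 µg/ml, 1819, 1654 and 1684 with 10 µg/ml and 1395, 1566 and 1548 with 100 µg/ml. There the libraries of 100 µg/ml were below those of the lower doses without overlap. At 48 h the doses overlapped, at 1961 to 2312 CPM with the lower doses and 2043 to 2300.3 CPM with 100 µg/ml. At 72 h it was at 2101, 2029 and 2521 CPM with 1 µg/ml, 2460.4, 2618 and 2568 with 10 µg/ml and 2580.3, 2843 and 2891 with 100 µg/ml. At 72 h the highest dose thus held the highest mean, with 1 of its libraries inside the range of 10 µg/ml. The log2 difference from untreated cells at 72 h was 1.55 ± 0.09, 1.75 ± 0.09 and 1.87 ± 0.09 at the 3 doses, with adjusted p of 1.32e-19 to 1.85e-22.

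C4b and C2 encode the components that C1s cleaves. C4b held 54.5, 39.5 and 54.1 CPM in untreated cells and 35.6 to 56.7 CPM at 2 h. Its 24 h values were 94.2, 119.9 and 144 CPM with 1 µg/ml, 109.8, 91.3 and 117 with 10 µg/ml and 59.4, 74.6 and 87.1 with 100 µg/ml. At 48 h it was at 141 to 172 CPM with the lower doses and 106 to 121 CPM with 100 µg/ml. At both times the libraries of 100 µg/ml lay above the untreated ones and below the lower doses. At 72 h C4b was at 179 to 226 CPM with the lower doses and 172 to 217 CPM with 100 µg/ml, and these ranges overlapped. Its log2 difference from untreated cells was 0.57 ± 0.15 with 100 µg/ml at 24 h, with an adjusted p of 0.00189, and 1.97 ± 0.14 at 72 h, with 2.43e-16.

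C2, which supplies the protease of the classical C3-cleaving enzyme, held 24.4, 20.5 and 21.3 CPM in untreated cells and 16.5 to 27.9 CPM at 2 h. At 24 h it was at 48.7, 54.3 and 52.5 CPM with 1 µg/ml, 40.8, 42.8 and 44 with 10 µg/ml and 29.3, 31.4 and 33.1 with 100 µg/ml, with no overlap between any of the 3 doses. At 48 h C2 was at 48 to 60.8 CPM with the lower doses and 37.3 to 50.3 CPM with 100 µg/ml, and at 72 h at 42.6 to 62.3 CPM with the lower doses and 56.9 to 58.3 CPM with 100 µg/ml. At both of these times the highest dose overlapped the lower doses. The rise of C2 with 100 µg/ml at 24 h, 0.50 ± 0.16 with an adjusted p of 0.0123, was not called without the third library of that group (0.43), the second untreated library (0.43) or the third untreated one (0.44).

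C3, the central component, held 61.7, 59.5 and 52.8 CPM in untreated cells and 48.6 to 73.6 CPM at 2 h. After 24 h it stood at 145, 177 and 254 CPM with 1 µg/ml, 192, 156 and 186 with 10 µg/ml and 137, 148 and 152 with 100 µg/ml. The highest of these 9 values, that of the third library with 1 µg/ml, lay far above the other 2 of its group. At 48 h C3 was at 311 to 379 CPM with the lower doses and 298 to 356 CPM with 100 µg/ml, and these overlapped. At 72 h it was at 531, 547 and 465 CPM with 1 µg/ml, 533, 528 and 516 with 10 µg/ml and 614, 587 and 678 with 100 µg/ml. At 72 h the libraries of 100 µg/ml were the 3 highest of the series. Their log2 difference from untreated cells was 3.43 ± 0.14, a fold of 10.8, with an adjusted p of 8.58e-25, beside 3.15 ± 0.14 and 3.18 ± 0.14 at 1 and 10 µg/ml.

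Cfb, which encodes the protease of the alternative pathway's C3-cleaving enzyme, held 42.1, 39.99 and 31.9 CPM in untreated cells and 27.9 to 40.6 CPM at 2 h. By 24 h it stood at 70.6, 73.4 and 64.4 CPM with 1 µg/ml, 86.9, 70.4 and 98.4 with 10 µg/ml and 33.7, 47.5 and 46 with 100 µg/ml. The lower doses stood clear of untreated cells at 24 h and the highest dose overlapped them. The difference with 100 µg/ml was 0.16 ± 0.20, with an adjusted p of 0.548 and a 95% interval of -0.24 to 0.57. At 48 h Cfb was at 76.3 to 143 CPM with the lower doses and 60.3 to 70.7 CPM with 100 µg/ml, with no overlap. At 72 h it was at 131, 106 and 86.8 CPM with 1 µg/ml, 164, 98.5 and 99.4 with 10 µg/ml and 84.6, 79.5 and 89.9 with 100 µg/ml. The first library of 10 µg/ml and the first of 1 µg/ml were the highest at 72 h, and the highest dose overlapped 1 µg/ml. The log2 differences from untreated cells at 72 h were 1.51 ± 0.18, 1.67 ± 0.18 and 1.15 ± 0.19, all called.

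C7, which encodes a component of the membrane attack complex, was at the lowest counts of the 9 genes, with 8.02, 2.63 and 6.81 CPM in untreated cells from 20, 5 and 16 counts. With 1 µg/ml it was at 24, 23.4 and 30.5 CPM at 24 h, 52.6, 49.3 and 56.3 at 48 h and 66.5, 74.3 and 76.1 at 72 h. With 10 µg/ml it was at 22.4, 18.9 and 20.9 CPM at 24 h, 45, 45 and 29.9 at 48 h and 66.6, 67.6 and 74 at 72 h. With 100 µg/ml it was at 7.92, 4.39 and 4.88 CPM at 24 h, 9.99, 14.1 and 8.97 at 48 h and 24.8, 20.6 and 19.6 at 72 h. At each of these times every library of 100 µg/ml lay below every library of the lower doses, and at 24 h its values overlapped those of untreated cells. The log2 difference from untreated cells at 72 h was 3.57 ± 0.22 and 3.51 ± 0.22 with the lower doses, folds of 11.8 and 11.4, and 1.82 ± 0.27, a fold of 3.54, with 100 µg/ml. With 100 µg/ml at 24 h it was -0.10 ± 0.35, with an adjusted p of 0.854, and the sign turned without the second library of that dose (0.04) or the first untreated library (0.18). At 48 h it was 0.87 ± 0.32, with an adjusted p of 0.0256, and the call was lost without the second library of that dose (0.64) or the second untreated library (0.55).

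Cd55, which encodes the decay-accelerating factor, held 15.6, 18.4 and 17.5 CPM in untreated cells and 15 to 26.9 CPM at 2 h. The values at 24 h were 44.4, 34.6 and 39.8 CPM with 1 µg/ml, 37.8, 34.8 and 36.7 with 10 µg/ml and 28.1, 28.5 and 23 with 100 µg/ml. At 48 h it was at 38.2 to 46.4 CPM with the lower doses and 27.7 to 37.3 CPM with 100 µg/ml, and at 72 h at 49.9, 43.7 and 37.2 CPM with 1 µg/ml, 50.4, 49.1 and 41.6 with 10 µg/ml and 34, 33.5 and 29.8 with 100 µg/ml. At each of these 3 times the libraries of 100 µg/ml lay between the untreated ones and those of the lower doses, with no overlap with either. The log2 difference from untreated cells was 1.21 ± 0.16, 1.09 ± 0.17 and 0.63 ± 0.17 at 24 h and 1.35 ± 0.16, 1.46 ± 0.16 and 0.92 ± 0.17 at 72 h, all called.

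**Figure D2:**
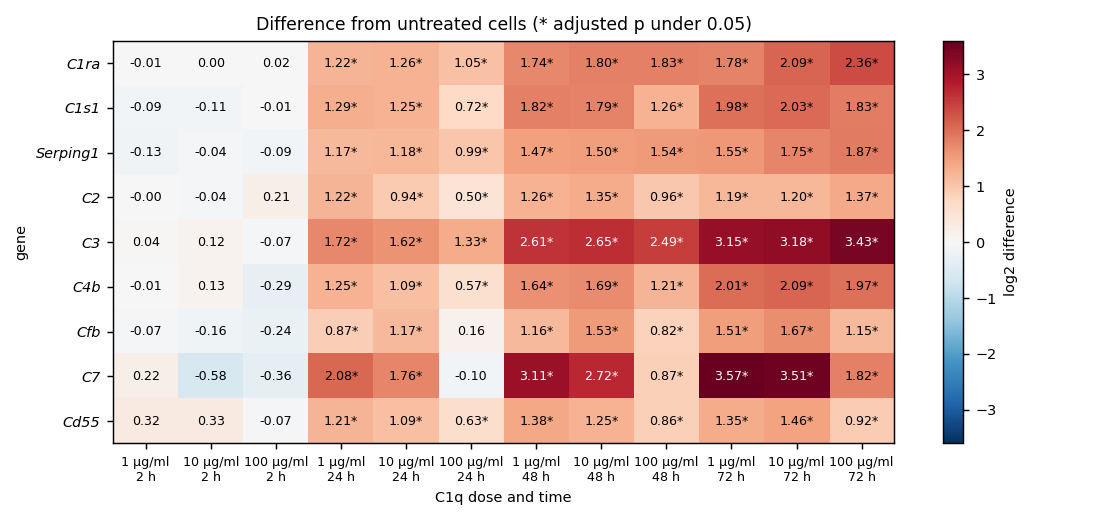
Log2 difference of each of the 9 genes (rows) from untreated cells in each of the 12 groups (columns, dose and time), in colour and as a number, with an asterisk where the adjusted p was under 0.05. No gene is called at 2 h, and at 72 h all are, from 0.92 for Cd55 with 100 µg/ml to 3.57 for C7 with 1 µg/ml.

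The lower doses were then compared with each other at each time, which holds time in culture fixed. Between 10 and 1 µg/ml, 0 of the 9 members were called at 2, 24, 48 or 72 h, where 0.839%, 0.0485%, 0.208% and 0% of all tested genes were called by edgeR. At an unadjusted p under 0.05 the counts were 1, 1, 2 and 2 of 9, and DESeq2 called 0. The percentages above are for the adjusted p, and the share of all tested genes at the unadjusted threshold was not counted. The 95% intervals of the log2 differences reached from -1.54 to 0.44 at 2 h and -0.71 to 0.63 at 24 h. They reached from -0.72 to 0.69 at 48 h and -0.35 to 0.51 at 72 h. The largest difference was that of C7 at 2 h, at -0.81 ± 0.36 with an adjusted p of 0.539 by edgeR. The member furthest from 0 at 72 h was C1ra, at 0.31 ± 0.10 with an adjusted p of 1 and libraries that did not overlap. A p that misses the threshold does not show that the 2 doses act alike.

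The highest dose was then compared with the mean of the lower doses at each time. At 2 h 0 of the 9 were called (background 4.13%) and DESeq2 called 0. An unadjusted p under 0.05 was found for 2, and the share of all tested genes at that threshold was not counted. At 24 h, 7 of the 9 were lower with 100 µg/ml than with the lower doses, where 8.79% of all tested genes were called lower. C7 stood at -2.02 ± 0.23, Cfb at -0.86 ± 0.16, C4b at -0.60 ± 0.12, C2 at -0.58 ± 0.12, C1s1 at -0.55 ± 0.08, Cd55 at -0.52 ± 0.13 and C3 at -0.34 ± 0.11. C1ra and Serping1, at -0.19 ± 0.09 and -0.19 ± 0.07, were not called, with adjusted p of 0.185 and 0.0826. The median of the 9 was -0.55, beside 0.03 over all tested genes.

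The C3 difference at 24 h, with an adjusted p of 0.0266, was -0.23 without the third library of 1 µg/ml, and the call was lost, with an adjusted p of 0.0914. It was also lost without the first (-0.32) or the third (-0.32) library of 10 µg/ml, or the first (-0.30), second (-0.36) or the third (-0.38) of 100 µg/ml, and when only the 9 libraries of 24 h were fitted (adjusted p 0.118). The Cd55 call at 24 h, with an adjusted p of 0.00403, was lost without the third library of 100 µg/ml (-0.43). The calls of C7, Cfb, C4b, C2 and C1s1 at 24 h held with each library of the groups compared left out in turn.

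At 48 h, 6 of the 9 were lower with 100 µg/ml, beside 8.43% of all tested genes. C7 stood at -2.05 ± 0.20 with an adjusted p of 1.11e-10, C1s1 at -0.55 ± 0.08 with 7.89e-07 and C4b at -0.46 ± 0.11 with 0.00384. Cfb, Cd55 and C2 stood at -0.53 ± 0.15, -0.45 ± 0.13 and -0.35 ± 0.12, with adjusted p of 0.0145, 0.0166 and 0.044. These 3 calls were lost when single libraries were left out. Cfb was at -0.40 without the first library of 10 µg/ml and -0.45 without the second of 100 µg/ml, and Cd55 at -0.37 and -0.40 without the second or the third of 100 µg/ml, none of them called. C2 was not called without the first (-0.30) or second (-0.36) library of 1 µg/ml, the second (-0.34) or the third (-0.30) of 10 µg/ml, or the first (-0.24) or the third (-0.32) of 100 µg/ml, nor with DESeq2 (-0.35, adjusted p 0.0959). C1ra, Serping1 and C3 were not called at 48 h, at 0.06 ± 0.09, 0.06 ± 0.07 and -0.14 ± 0.10.

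At 72 h the members were split. C7, Cd55 and Cfb were lower with 100 µg/ml, at -1.71 ± 0.16, -0.48 ± 0.13 and -0.43 ± 0.14, with adjusted p of 3.84e-11, 0.00657 and 0.0317, so 3 of 9 beside 8.3% of all tested genes. C1ra and Serping1 were higher, at 0.43 ± 0.09 and 0.22 ± 0.07, with adjusted p of 0.000275 and 0.029, so 2 of 9 beside 6.6%. C3 was at 0.27 ± 0.10 with an adjusted p of 0.0595, and was called when only the 9 libraries of 72 h were fitted (0.00879). C1s1 was at -0.17 ± 0.07 with 0.108, and C2 and C4b at 0.18 ± 0.11 and -0.08 ± 0.10. The protease C1ra and the inhibitor Serping1 were thus both above their levels at the lower doses, and C1s1, the partner of C1ra, was not called.

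Of the 5 calls at 72 h, those of C7 and C1ra held without any single library. The Cfb call was lost without the first library of 1 µg/ml (-0.35), the first of 10 µg/ml (-0.29), or the first (-0.43), second (-0.38) or the third (-0.48) of 100 µg/ml. The Serping1 call was lost without the first (0.20) or second (0.19) library of 1 µg/ml, the first of 10 µg/ml (0.21), or the second (0.21) or the third (0.19) of 100 µg/ml. It was also lost with no filter on low counts, with an adjusted p of 0.125. The Cd55 call was lost without the third of 100 µg/ml (-0.43).

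Markers of other cell types also differed by dose at these times. The summed fibroblast markers were lower with 100 µg/ml at 24 h, at 5397 to 6089.5 CPM beside 6790.1 to 8425 and 7365 to 7746 with 1 and 10 µg/ml, and higher at 72 h, at 8430.3 to 9186 CPM beside 7384 to 7983 and 7541 to 7749.7. Of the 7 fibroblast markers, 5 were called lower with 100 µg/ml at 24 h, and at 72 h 2 were called higher and 1 lower. The 6 mesothelial markers summed to 404 to 471 CPM with 100 µg/ml at 72 h, below the 617 to 739.9 and 543 to 652 of the lower doses, and 4 of the 6 were called lower. The 7 endothelial markers summed to 42.6 to 58.2 CPM with 100 µg/ml at 72 h, below the 74 to 96.3 and 70.9 to 82 of the lower doses, and 1, 3 and 3 of the 6 tested were called lower at 24, 48 and 72 h. Of the 7 mural markers 0, 1 and 1 were called lower at these times, and of the 11 tested epithelial markers 1, 1 and 0, with 1 called higher at 24 h. Of the 13 tested myeloid markers, 0, 4 and 6 were called lower with 100 µg/ml at 24, 48 and 72 h, with 1 called higher at 24 h. The myeloid sums at 24 h were 381 to 399 CPM with 1 µg/ml, 309 to 362 with 10 µg/ml and 396 to 413 with 100 µg/ml. Of Marco and Chil3, the 2 myeloid markers too low to test, Marco was at 0 in 4 groups. The part of these cell types in the members' dose differences was not tested.

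**Figure D3:**
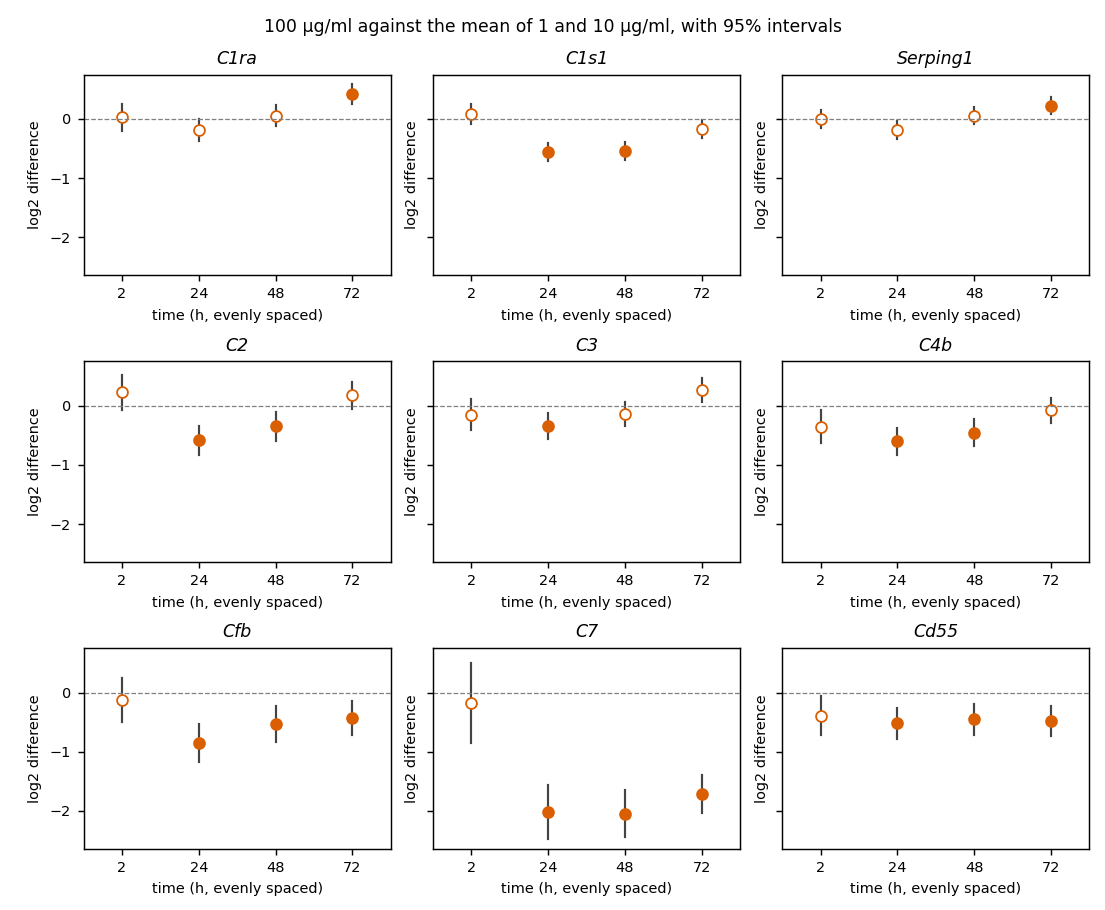
Log2 difference of 100 µg/ml from the mean of 1 and 10 µg/ml (vertical axis) at each time (time points evenly spaced) for each of the 9 genes; points are estimates, bars their 95% intervals, filled points have an adjusted p under 0.05 and the dashed line is no difference. C7 lies near -2 from 24 h on, Cd55 near -0.5, and C1ra moves from -0.19 at 24 h to 0.43 at 72 h.

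Whether the difference of the highest dose changed over the 4 times was tested directly, with an F test of 3 degrees of freedom. It was called for 6 of the 9 members (C1ra, C1s1, Serping1, C2, C3 and C7), beside 10.6% of all tested genes. The adjusted p was 0.081 for C4b, 0.172 for Cfb and 0.969 for Cd55. The call of C3 was lost without the third 72 h library of 100 µg/ml (adjusted p 0.089) and that of C7 without the second of 100 µg/ml at 2 h (0.0823). The call of Serping1 was lost without any of 9 libraries, with an adjusted p of 0.0563 to 0.139. These were the second of 1 µg/ml, the first of 10 µg/ml and the third and the first with 100 µg/ml at 24 h, and the first and second of 1 µg/ml, the first of 10 µg/ml and the second and the third of 100 µg/ml at 72 h. C4b was called without the first library of 1 µg/ml (0.0255) or the third of 100 µg/ml (0.0363) at 24 h, or the second of 100 µg/ml at 72 h (0.0484).

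The difference at 72 h minus that at 24 h was called higher for 5 of the 9 (background 1.53%), which means a gain of the highest dose on the lower doses. It was 0.76 ± 0.17 for C2, 0.62 ± 0.13 for C1ra, 0.61 ± 0.15 for C3, 0.41 ± 0.10 for Serping1 and 0.38 ± 0.10 for C1s1, with adjusted p of 0.00418, 0.00221, 0.0126, 0.0186 and 0.0358. C4b was at 0.52 ± 0.16 with an adjusted p of 0.0588, and Cfb, C7 and Cd55 at 0.42 ± 0.21, 0.31 ± 0.30 and 0.04 ± 0.18 were not called.

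The gains of C2 and C1ra held without any single library. That of C3 was not called without the first library of 100 µg/ml at 24 h (0.57) or the third of 100 µg/ml at 72 h (0.55). That of Serping1 was not called without the same 2 (0.36 and 0.38) or the second of 100 µg/ml at 72 h (0.40). That of C1s1 was lost without any of 11 of the 18 libraries compared, at 0.32 to 0.40. These were the second of 1 µg/ml, the third of 10 µg/ml and the third and the first with 100 µg/ml at 24 h, and the third and the first of 1 µg/ml, the second and the third of 10 µg/ml and all 3 of 100 µg/ml at 72 h. It was also lost with edgeR's RLE scaling in place of TMM, with an adjusted p of 0.0506. The same held with no filter on low counts (0.152) and when only the libraries compared were fitted (0.059). That of C4b was called without the first library of 1 µg/ml (0.60), the second of 10 µg/ml (0.57) or the third of 100 µg/ml (0.67) at 24 h, or the second of 100 µg/ml at 72 h (0.62).

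Averaged over the 3 doses, most members rose at each step between neighbouring times. From 2 to 24 h all 9 rose, beside 29.3% of all tested genes, by 0.78 for Cd55 to 1.53 for C3 on the log2 scale. This average hides C7 with 100 µg/ml, whose means were 4.68 CPM at 2 h and 5.73 CPM at 24 h. From 24 to 48 h, 8 of the 9 rose (background 12.8%), and Cd55 was at 0.19 ± 0.08 with an adjusted p of 0.0968. From 48 to 72 h, 7 of the 9 rose (background 8.38%), led by C7 at 0.73 ± 0.11, C3 at 0.67 ± 0.07 and C4b at 0.51 ± 0.07. C1s1, C1ra and Serping1 rose by 0.32, 0.29 and 0.22. C2 and Cd55 were at 0.06 ± 0.08 and 0.08 ± 0.08, with adjusted p of 0.648 and 0.596. For C2 this averaged unlike doses. Its means went from 53.2 to 50.7 CPM with 1 µg/ml, 56.7 to 50.9 with 10 µg/ml and 43 to 57.5 with 100 µg/ml. The rise of Cfb in that step, 0.27 ± 0.09 with an adjusted p of 0.0403, was lost on leaving out any of 10 of the 18 libraries, at 0.18 to 0.28. These were the second and the third of 1 µg/ml, the second and the third of 10 µg/ml and the second of 100 µg/ml at 48 h, and the first and second of 1 µg/ml, the first of 10 µg/ml and the third and the first with 100 µg/ml at 72 h. It was also lost with DESeq2, with an adjusted p of 0.0608.

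When the 13 groups were put in order of mean level for each gene, most neighbours in the order overlapped in their libraries. Of the 12 neighbouring pairs, C3 had 5 that did not overlap, C1ra and C1s1 4 each, Serping1, C4b and C7 3 each, C2 and Cfb 2 each, and Cd55 1. For C3 the order ran from the groups of 0 and 2 h, which overlapped, to 100 µg/ml at 24 h, the other doses of 24 h, the 3 doses of 48 h, the lower doses of 72 h and last 100 µg/ml at 72 h. For C7 the group of 100 µg/ml at 24 h ranked among the untreated and 2 h groups, and that of 100 µg/ml at 48 h came next above them. The first gap without overlap between neighbours was from 11 ± 2.7 CPM with 100 µg/ml at 48 h to 20.7 ± 1.74 CPM (SD, n = 3) with 10 µg/ml at 24 h. For Cd55 the only gap was from 32.4 ± 2.27 CPM with 100 µg/ml at 72 h to 36.4 ± 1.48 CPM (SD, n = 3) with 10 µg/ml at 24 h.

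Over the 13 group means of log2 CPM, pairs of members had Pearson correlations from 0.8054 for C1ra and C7 to 0.9934 for C1ra and Serping1. These are descriptions, since all genes share the libraries and the course over time. C1ra and C1s1, neighbours on chromosome 6, had 0.9643, and C2 and Cfb, parted by 87 bases, had 0.9294. Among 10272 named genes with a mean log2 CPM of at least 3, those most like each member by this measure were then listed. They were Ces1d, Gsn and C1rb for C1ra (0.9903 to 0.9925), Cpq, Dcn and Sparcl1 for C1s1 (0.9917 to 0.9948), and Igfbp5, Nkain4 and Clec3b for Serping1 (0.9911 to 0.9927). For C3 they were Fmod, Apoe and Itm2b (0.9918 to 0.9963), for C4b Cpq, Dpt and Tmeff2 (0.9883 to 0.989) and for C2 Fxyd1, Pltp and Mfap2 (0.9734 to 0.9822). For Cfb they were Serpina3n, Igfbp4 and Laptm4a (0.9797 to 0.9829), for C7 Sfrp1, Col28a1 and Ctsb (0.9776 to 0.9849), and for Cd55 Adamtsl3, Itm2a and Serpina3n (0.9766 to 0.9794).

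Of 46 other complement genes listed, 42 were in the table and 24 could be tested. At 72 h 17, 17 and 15 of the 24 were higher than in untreated cells at 1, 10 and 100 µg/ml. Of all tested genes, 18.1%, 19.3% and 22.5% were called higher there. At 72 h 1, 1 and 2 of the 24 were lower. At 2 h 0, 0 and 0 were higher and 0, 0 and 1 lower. The share of all tested genes called at 2 h in either direction was 6.15%, 12.7% and 5.16%. Among the regulators, Cfi, the protease that inactivates C3b and C4b, was higher by 3.27 ± 0.35, 3.11 ± 0.35 and 3.19 ± 0.36 at 72 h. Clu, which encodes clusterin, an inhibitor of the membrane attack complex, held 677, 590.4 and 555 CPM in untreated cells and 308, 296 and 283 CPM with 100 µg/ml at 72 h, where it was lower (-1.04 ± 0.09), and it was not called at 1 or 10 µg/ml (0.02 ± 0.09 and -0.10 ± 0.09).

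The genes of C1q itself were also higher at 72 h. C1qb, which encodes a chain of C1q and is a macrophage product in many tissues, held 10.4, 4.74 and 8.94 CPM in untreated cells, 169, 149 and 147 with 1 µg/ml at 72 h and 99.8, 75.2 and 82 with 100 µg/ml. C1qa, C1qb and C1qc were each lower with 100 µg/ml than with the lower doses at 72 h, at -0.88 ± 0.11, -0.87 ± 0.10 and -0.60 ± 0.12. In the same comparison C1ra and Serping1 were higher, though the Serping1 call was lost without some single libraries. The part of macrophages in these differences was not tested. The receptor genes C3ar1, C5ar1 and Itgam were lower with the highest dose at 72 h as well, at -0.51 ± 0.18, -0.81 ± 0.21 and -0.80 ± 0.20. Masp1, a protease of the lectin pathway, fell below untreated cells at 72 h at each dose, at -1.87 ± 0.46, -1.70 ± 0.43 and -1.75 ± 0.46, from means under 6 CPM.

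Mouse has near-identical copies of 4 members, C1rb, C1s2, C4a and Cd55b, and reads shared with them cannot be told apart with certainty. C1rb held 14, 14.7 and 13.2 CPM in untreated cells and 68.4, 65.4 and 82 CPM with 100 µg/ml at 72 h. Like C1ra, it was higher with 100 µg/ml than with the lower doses at 72 h (0.48 ± 0.13, adjusted p 0.00747). Means of C1s2, C4a and Cd55b in untreated cells were 2.61, 3.8 and 4.05 CPM. Adding the counts of each copy to its member altered no call and no sign among 153 member results, which leave out the differences at 2 h and between 10 and 1 µg/ml. Among those, uncalled differences of C1ra and C4b near 0 turned sign.

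**Figure D4:**
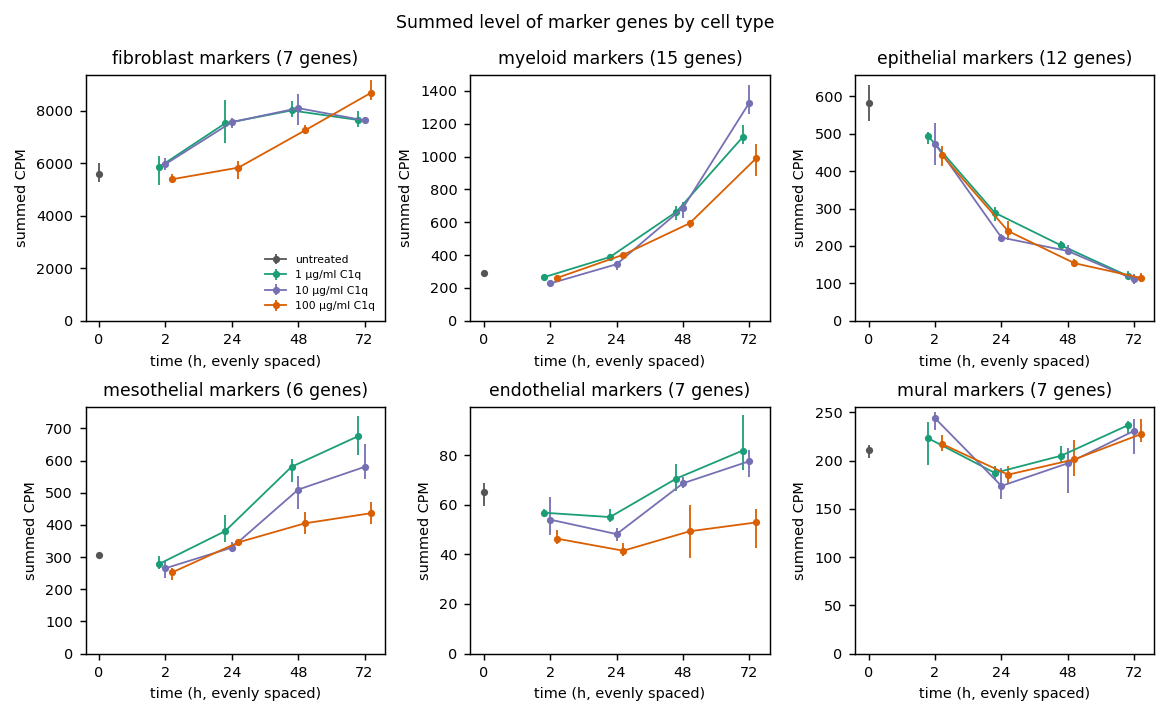
Summed CPM of marker genes of 6 cell types (panels) against time with C1q (time points evenly spaced) by dose; points are group means, bars run from the lowest to the highest library, and each panel has its own linear axis from 0. Myeloid sums are highest at 72 h at every dose, epithelial sums fall over time, and fibroblast sums with 100 µg/ml lie below the other doses at 24 h and above them at 72 h.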

How the data were processed

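Poly(A) RNA of 39 libraries was sequenced from the 5′ end, per the labels' protocols. The authors deposited a table of raw counts per gene. The submitters' processing notes name cutadapt 2.1.0, Bowtie2 2.4.2 and the genome build GRCm38. The sources used here do not say how reads were assigned to genes, whether strand was used or whether molecules were tagged, and reads of near-identical or overlapping genes could be split. Of 39 columns, 9 were spelled differently from the sample titles (7 of the 24 h libraries, 6 of them with 10 or 100 µg/ml, and 2 of the 48 h libraries, both with 1 µg/ml), and were matched by the serial number that ends each name and title.

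Counts were tested with edgeR 4.0.16 (limma 3.58.1, R 4.3.3), as a quasi-likelihood fit over all 39 libraries with a mean per group, TMM scaling and edgeR's default filter on low counts. Each of 25 comparisons was adjusted over the 14419 tested genes by the Benjamini-Hochberg method, and tests were two-sided with a threshold of 0.05. CPM used TMM-scaled totals. The standard error (SE) of a log2 difference came from the F statistic. Nothing says that the 3 libraries of a group are separate cultures, and their spread, on which the p-values rest, may be technical. The 39 pairs of libraries within groups had chi-square values per degree of freedom of 1.31 to 8.48, so none was counted as a repeat. Figures were drawn with matplotlib 3.10.9 in Python 3.11.15.

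The named genes were the 9 members, the other complement genes from a list, and the 3 genes most like each member, leaving out predicted and unnamed transcripts. The members and lists were chosen with earlier results of these data known. Alternatives were RLE scaling, DESeq2 1.42.0, no filter, an adjusted p under 0.01, only the libraries compared, each library left out, copies summed, the row LOC118568312 (6.1 to 14.1% of counts in a library) removed, and only columns with the titles' spelling. The fit was tested on simulated data.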

Additional observations from a re-analysis of the deposited data

Results flagged for a closer look

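The difference of 100 µg/ml C1q from the mean of 1 and 10 µg/ml changed over the 4 times for 6 of the 9 members, by edgeR's F test of 3 degrees of freedom over all tested genes, where 10.6% of all tested genes were called. The adjusted p was 5.12e-05 for C1s1, 0.00108 for C2, 0.0042 for C1ra, 0.00955 for C7, 0.0178 for C3 and 0.0351 for Serping1. For C1ra the log2 difference went from -0.19 at 24 h to 0.06 at 48 h and 0.43 at 72 h, and for Serping1 from -0.19 to 0.06 and 0.22. For C3 it went from -0.34 to -0.14 and 0.27, for C2 from -0.58 to -0.35 and 0.18, and for C1s1 from -0.55 to -0.55 and -0.17. At 2 h, where no member was called, the difference was 0.03 for C1ra, 0.001 for Serping1, -0.15 for C3, 0.23 for C2, 0.09 for C1s1 and -0.18 for C7. For C7 it stayed negative from 24 h on, at -2.02, -2.05 and -1.71. The F test calls of C3, C7 and Serping1 were each lost when some single libraries were left out, as given above.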

How the results depend on the processing

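No paired analysis was possible because the labels give each library a serial number of its own and no replicate number shared between groups. Adding copies to their members or removing the row LOC118568312 altered no call and no sign among 153 member results, which leave out 2 h and 10 against 1 µg/ml. RLE scaling ended 1 call, DESeq2 2 of 144, no filter on low counts 3 (and it added calls for C4b and Cfb in the F test over times, with adjusted p of 0.0255 and 0.00946), a fit of only the libraries compared 3 and the columns with the titles' spelling 3 of 90. At an adjusted p under 0.01, the count of members that differed between 100 µg/ml and the lower doses was 3 in place of 6 at 48 h and 3 in place of 5 at 72 h, and the count whose difference changed from 24 to 72 h was 2 in place of 5. With each library left out in turn, these counts ran from 4 to 6 at 48 h, 2 to 5 at 72 h and 2 to 6 for the change, and from 5 to 7 at 24 h. Against untreated cells, the counts with 100 µg/ml ran from 6 to 7 at 24 h and 8 to 9 at 48 h. In 1701 such alternatives of 153 member results, 70 lost a call, 7 gained one and 7 turned a sign. The sign turned in uncalled differences of C7 with 100 µg/ml against untreated cells at 24 h (-0.41 to 0.18), of C4b between 100 µg/ml and the lower doses at 72 h (-0.16 to 0.016) and of Cd55 between 72 and 24 h (-0.054 to 0.10). The causes were not tested. Of 72 member differences at 2 h or between 10 and 1 µg/ml, 36 turned sign in some alternative and 0 were called in any. The title-spelling setting could not be fitted where it left a group empty, and DESeq2 was not run for the F test over the 4 times.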
